A study of Mus musculus with 96 samples.

Results

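Imprinted genes were examined in chromatin immunoprecipitation sequencing (ChIP-seq) data from mouse hippocampal nuclei. The 10 genes were Peg3, Mest, Snrpn, Ndn, Magel2, Peg10, Plagl1, Kcnq1ot1, Grb10 and Meg3, and every consensus peak that the authors had annotated to one of these symbols was taken, in each of 6 tables. This gave 19 of 22815 peaks, and 7 of the 10 genes had at least 1. No peak was annotated to Snrpn, Ndn or Peg10. Each of the 19 peaks was a window of 401 bp over which reads had been counted, so that levels can be compared between windows without a correction for length.

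The mice were 6 months old C57BL/6N males and belonged to 4 genotypes, namely Mutyh-/-, Ogg1-/-, mice lacking both genes (DKO, double knockout) and wild-type (WT) mice. Mutyh and Ogg1 encode DNA glycosylases that start the repair of oxidised bases. Both deletions were constitutive, thus every cell lacked the enzyme throughout life, and hippocampi of several animals of 1 genotype had been pooled before sorting. Nuclei were sorted on the neuronal protein NeuN into neuronal (NeuN+) and mostly glial (NeuN-) samples, and their chromatin was precipitated with antibodies against H3K4me3, H3K27me3 or the Polycomb repressive complex 2 (PRC2) subunit Suz12. A table covers 1 antibody in 1 fraction and has 12 libraries, 3 for each genotype, which makes 72 libraries in 6 tables.

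Genomic imprinting is the expression of a gene from only 1 parental allele. It is mostly set by DNA methylation that the egg or the sperm leaves on an imprinting control region, and Zfp57, a zinc finger protein that recognises methylated TGCCGC, protects this methylation together with Trim28. The unmethylated allele of such a region usually carries H3K4me3, the mark of active promoters, whereas the other allele carries DNA methylation. H3K27me3, which PRC2 deposits, marks some imprinted promoters on 1 allele. The reads here were not assigned to alleles, so each value sums both parental copies, and a change in the share of cells that carry a mark cannot be told apart from a change in the mark per cell.

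In NeuN+ nuclei, H3K4me3 libraries held 96023 to 548706 reads in windows, H3K27me3 libraries 23794 to 52344 and Suz12 libraries 6652 to 33035. H3K27me3 libraries of NeuN- nuclei held 19132 to 78250. There a single window held from 20.6% of the reads in DKO replicate 1 to 73.0% in Ogg1-/- replicate 2, the library with 78250. The median window of these libraries had 1 to 8 reads, 8 in replicate 1 of each knockout and 3 in WT replicate 1. In H3K27me3 NeuN+ the median was 3 to 9 reads, and the top window held up to 46.9%, in Mutyh-/- replicate 1. The H3K4me3 NeuN+ library DKO replicate 1 was the shallowest of its table. Promoter H3K4me3 windows were present for 8 of 8 neuronal markers in NeuN+ nuclei and for 0 of 8 in NeuN- nuclei, where Olig1 was the only 1 of the 16 glial and endothelial markers with such a window. In NeuN+ nuclei 2 of these 16 had one, the astrocyte gene Slc1a3 with 14.1 normalised reads and the oligodendrocyte gene Mbp with 28.6, beside a median of 21.6 for the neuronal markers, and the part of glial nuclei in the results was not tested. Of the targeted genes, Mutyh had no window in any table, and Ogg1 had an H3K4me3 NeuN+ promoter window with 10.7 ± 4.79 normalised reads in WT, 12.6 ± 5.94 in Ogg1-/- and 6.59 ± 7.32 in DKO (SD, n = 3). A window at the promoter need not lie in the deleted part, thus it does not test the labels.

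H3K4me3 in NeuN+ nuclei gave 7 of the 19 windows, at the starts of Peg3, Mest, Plagl1, Kcnq1ot1, Grb10 and Meg3 and in 1 place that was assigned to Mest by distance. The Peg3 and Kcnq1ot1 windows lay 0.3 kb and 1.1 kb inside their genes, counted to the window centre from the RefSeq gene start, and the Plagl1 and Meg3 windows 0.2 kb inside. The Mest window lay 4.8 kb inside the RefSeq gene, just past the start of its shorter RefSeq transcripts, and held coding bases. The Grb10 window lay 11.1 kb inside the gene and contained the start of a shorter protein-coding transcript. Grb10, an adaptor of the insulin receptor, is known to be read from the paternal allele at internal starts in neurons and from the maternal allele at its upstream start elsewhere. The second window assigned to Mest lay 71.5 kb past the Mest start inside an intron of Copg2, a coat protein gene that runs through this place.

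The sequences of these windows are shown because 4 of the 7 held TGCCGC, the letters that Zfp57 reads. Each line is a stretch of GRCm38 without annotated untranslated exons, at most 240 bases, written 5′ to 3′ on the strand of the gene named, in lower case with TGCCGC or its reverse complement GCGGCA in capitals.
Peg3, chr7:6729970-6730209, minus strand: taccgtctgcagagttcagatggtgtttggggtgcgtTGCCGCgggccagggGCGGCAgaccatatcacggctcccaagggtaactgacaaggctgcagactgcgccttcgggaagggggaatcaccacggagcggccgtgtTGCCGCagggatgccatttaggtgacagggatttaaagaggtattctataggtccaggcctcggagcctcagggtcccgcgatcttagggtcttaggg
Mest, chr6:30738336-30738507, plus strand: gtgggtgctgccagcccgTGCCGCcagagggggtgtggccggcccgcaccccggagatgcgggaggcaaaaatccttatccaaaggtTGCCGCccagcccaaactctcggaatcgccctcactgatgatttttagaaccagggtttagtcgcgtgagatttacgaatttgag
Plagl1, chr10:13091025-13091236, plus strand: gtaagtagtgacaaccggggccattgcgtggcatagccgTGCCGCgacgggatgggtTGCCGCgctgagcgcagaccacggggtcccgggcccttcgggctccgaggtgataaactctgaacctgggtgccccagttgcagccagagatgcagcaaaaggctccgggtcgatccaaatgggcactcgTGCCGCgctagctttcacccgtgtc
Grb10 internal start, chr11:12026325-12026543, minus strand: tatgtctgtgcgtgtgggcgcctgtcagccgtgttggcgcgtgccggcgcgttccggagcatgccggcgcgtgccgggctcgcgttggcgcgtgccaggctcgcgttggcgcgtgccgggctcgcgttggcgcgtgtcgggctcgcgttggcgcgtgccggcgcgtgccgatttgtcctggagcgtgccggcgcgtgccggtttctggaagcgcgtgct
Kcnq1ot1, chr7:143295309-143295548, minus strand: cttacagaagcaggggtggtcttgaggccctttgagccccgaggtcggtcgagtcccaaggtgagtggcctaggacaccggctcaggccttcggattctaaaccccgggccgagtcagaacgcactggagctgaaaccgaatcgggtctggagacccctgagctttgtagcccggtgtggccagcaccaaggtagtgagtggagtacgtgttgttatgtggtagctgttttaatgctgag
Meg3, chr12:109541095-109541334, plus strand: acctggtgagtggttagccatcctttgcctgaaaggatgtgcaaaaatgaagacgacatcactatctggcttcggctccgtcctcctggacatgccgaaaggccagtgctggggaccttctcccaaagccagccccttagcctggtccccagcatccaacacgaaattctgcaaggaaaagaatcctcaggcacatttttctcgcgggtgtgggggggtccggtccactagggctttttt
Mest-assigned window in Copg2, chr6:30804850-30805089, plus strand: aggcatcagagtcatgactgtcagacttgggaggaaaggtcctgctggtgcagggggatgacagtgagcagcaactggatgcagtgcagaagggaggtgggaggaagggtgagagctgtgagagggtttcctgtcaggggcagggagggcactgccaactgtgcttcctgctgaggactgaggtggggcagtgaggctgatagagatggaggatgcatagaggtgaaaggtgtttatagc

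TGCCGC, searched on both strands, occurred 6 times in the whole 401 bp Mest window, 3 times in Plagl1, 3 times in Peg3 and 2 times in the Grb10 internal window. The Kcnq1ot1, Meg3 and Copg2 windows had none, and of the 12628 H3K4me3 NeuN+ windows 34.1% held it at least once. The 2 Grb10 matches lay in the untranslated exon that is left out above. In the RefSeq promoter windows of GRCm38, from 250 bases before to 50 after a start, 6 of 16 windows of 9 of these genes held TGCCGC, against 11.6% of 32851 windows of all genes. Those 6 belonged to Mest, Plagl1, Grb10, Meg3 and Snrpn, and Peg10 was not among the genes with such a window. The Mest windows among the 6 start at 30737800 and 30737803 and overlap almost wholly, so they are not separate counts. The Yy1 letters GCCATNTT, searched the same way, were in 0 of the 7 windows and 0 of the 16 promoters, against 6.75% of H3K4me3 NeuN+ windows and 6.05% of promoters. A match of letters is not a measured binding site.

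The H3K4me3 windows differed widely in CpG dinucleotides. The Grb10 internal window had 63 CpG, more than or as many as 97.5% of the windows of its table. Mest had 44, Plagl1 43, Kcnq1ot1 26, Peg3 21 and Meg3 15, and the Copg2 window had 1, against a median of 35 over all windows. Thus the window assigned to Mest in Copg2 lacked the CpG content of the other 6.

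All 7 H3K4me3 windows were low in their table. Over the 12 libraries, Peg3, a zinc finger protein gene read from the paternal allele, was highest with 17.7 ± 6.05 normalised reads (SD over 12 libraries), followed by Plagl1, which encodes a zinc finger transcription factor, with 15.2 ± 6.20. Kcnq1ot1, an antisense noncoding RNA that silences neighbouring genes, had 13.9 ± 6.24. Mest, a paternally read gene for a protein of the hydrolase family, had 12.8 ± 7.95, and the Grb10 internal window 10.9 ± 3.22. Meg3, a maternally read noncoding RNA of the Dlk1 and Dio3 domain, had 9.38 ± 3.99 and the Copg2 window 8.27 ± 6.42. The median over all windows was 23.7. The 7 windows stood at the percentiles 27.4, 18.2, 14.0, 10.9, 6.86, 4.15 and 2.76 of their table in this order, and after scaling the reads with TMM factors the percentiles were between 3.41 and 27.1. Between each pair of neighbours in this order the mean difference was smaller than its SD over the 12 libraries, thus the order of single neighbours was not resolved.

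**Figure D1:**
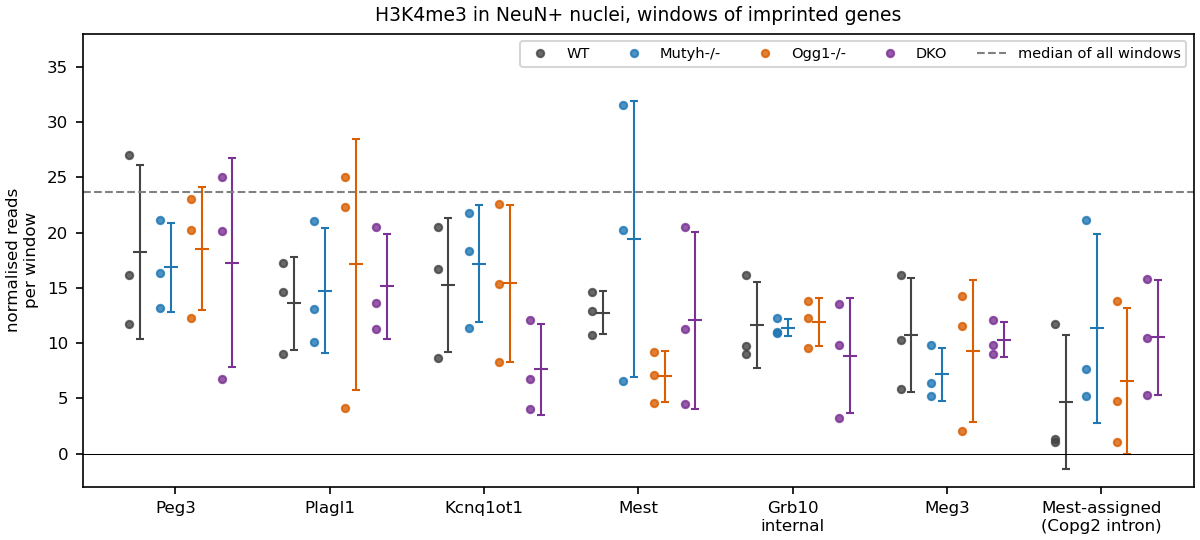
H3K4me3 in NeuN+ nuclei at the 7 windows of imprinted genes, in normalised reads per window (y axis). Points are the 3 libraries of each genotype, bars the mean ± SD (n = 3), and the dashed line is the median of the means of all 12628 windows, 23.7, which the mean of no genotype reaches at any of the 7 windows.

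In single libraries, Peg3 had 27.01, 11.7 and 16.2 normalised reads in WT, 16.3, 21.1 and 13.1 in Mutyh-/-, 20.2, 12.3 and 23.1 in Ogg1-/-, and 6.77, 20.1 and 25.02 in DKO. The genotypes overlapped, and their means lay between 16.9 and 18.5. Plagl1 had 9.004, 14.6 and 17.2 in WT, 13.1, 10.1 and 21.0 in Mutyh-/-, 24.99, 4.10 and 22.3 in Ogg1-/-, and 11.3, 13.7 and 20.5 in DKO. Here Ogg1-/- replicate 2 was the lowest and Ogg1-/- replicate 1 the highest of the 12 libraries. Grb10 had 9.004, 9.76 and 16.2 in WT, 10.9, 11.03 and 12.3 in Mutyh-/-, 9.52, 12.3 and 13.8 in Ogg1-/-, and 13.5, 3.22 and 9.85 in DKO. Its spread between libraries was the smallest of the 7 windows, with an SD of 29.4% of the mean.

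Kcnq1ot1 had 16.7, 20.5 and 8.62 normalised reads in WT, 21.8, 18.4 and 11.4 in Mutyh-/-, 8.33, 22.6 and 15.4 in Ogg1-/-, and 6.77, 4.02 and 12.1 in DKO. The DKO mean of 7.64 ± 4.12 was the lowest of the 4 genotypes, against 15.3 ± 6.07 in WT (SD, n = 3), but the ranges overlapped. Mest had 12.9, 14.6 and 10.8 in WT, 6.54, 20.2 and 31.5 in Mutyh-/-, 7.14, 9.23 and 4.61 in Ogg1-/-, and 4.51, 11.3 and 20.5 in DKO. All 3 Ogg1-/- libraries were below all 3 WT libraries here, whereas Mutyh-/- and DKO libraries lay on both sides of WT. Such a separation was seen in 3.68% of all windows for this comparison, and in 5.77% and 5.02% for Mutyh-/- and DKO, where none of the 7 windows had it. Meg3 had 10.3, 5.85 and 16.2 in WT, 9.81, 6.43 and 5.26 in Mutyh-/-, 14.3, 2.05 and 11.5 in Ogg1-/-, and 9.02, 12.1 and 9.85 in DKO. The window in Copg2 had 1.29, 11.7 and 1.08 in WT, 7.63, 21.1 and 5.26 in Mutyh-/-, 4.76, 1.03 and 13.8 in Ogg1-/-, and 15.8, 10.5 and 5.31 in DKO. WT replicate 2 stood apart from the other 2 WT libraries at this place.

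Each knockout was compared with WT to ask whether the loss of a glycosylase changed the marks at imprinted genes. A window was called when its log2 fold change passed 0.5 in either direction at an unadjusted p under 0.05, the rule of the study, in limma fits over all windows of a table on log2(value + 1). None of the 7 H3K4me3 windows was called in Mutyh-/-, Ogg1-/- or DKO, nor had any an unadjusted p under 0.05, and edgeR and DESeq2 on the recovered reads called none either. Over all 12628 windows, 0.911%, 0.966% and 1.46% were called. The largest differences by log2 fold change were those of the Copg2 window, 1.44 ± 0.91 in Mutyh-/- (SE, adjusted p = 1.000, limma) and 1.44 ± 0.91 in DKO (adjusted p = 1.000, limma), and both were called once WT replicate 2 was left out, with 2.28 and 2.29. Kcnq1ot1 in DKO had a log2 fold change of -0.95 ± 0.61 (SE, adjusted p = 1.000, limma), with a 95% interval from -2.18 to 0.29. Mest in Ogg1-/- had -0.82 ± 0.67 (SE, adjusted p = 1.000, limma), with an interval from -2.17 to 0.54. For Peg3, with log2 fold changes from -0.17 to 0.05, the intervals reached from -1.26 to 1.14, thus changes of about 2-fold were not detectable at this depth even at the highest of the 7 windows. The median log2 fold change of the 7 windows was 0.09 in Mutyh-/-, 0.04 in Ogg1-/- and -0.17 in DKO, beside -0.07, 0.08 and -0.02 over all windows.

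In NeuN- nuclei no H3K4me3 window was annotated to any of the 10 genes, among 3270 windows. A single window held from 25.4% of the reads of these libraries in DKO replicate 1 to 59.3% in Ogg1-/- replicate 2. Of the 12628 H3K4me3 windows of NeuN+ nuclei 23.8% overlapped a NeuN- window, and of the 3113 windows that were as low as these 7 or between them 6.33% did. Therefore 0 of 7 is close to what windows of this level gave. As the tables of the fractions were scaled separately, levels were not tested between them.

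The 3 genes with no window were looked up by position. A H3K4me3 NeuN+ window at chr7:60004060-60004460 lies within Snrpn, which encodes a spliceosomal protein and is read from the paternal allele, but was annotated to Snurf, the reading frame that shares its transcript. It had 11.6, 5.85 and 7.54 normalised reads in WT, 10.9, 6.43 and 16.6 in Mutyh-/-, 8.33, 9.23 and 13.1 in Ogg1-/-, and 6.77, 15.3 and 14.4 in DKO. The genotypes overlapped, the log2 fold changes were 0.36, 0.29 and 0.47 with an SE of 0.65 each, and the window stood at percentile 5.88. No window of any table lay within 60 kb of Peg10, a gene derived from a retrotransposon. Near Ndn, a gene of the MAGE family in the same domain as Snrpn, the only window within that distance was the one annotated to its neighbour and relative Magel2.

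H3K27me3 in NeuN+ nuclei gave another 7 windows, of which 6 were annotated to Grb10 and 1 to Meg3. Only 1 of them, at the upstream start of Grb10, was a promoter window, and Suz12 gave 1 window next to it. The H3K27me3 window covered the start itself, and the Suz12 window lay 0.4 kb inside the gene, where both share 11 bp. None of the 7 H3K4me3 windows overlapped an H3K27me3 or Suz12 window. Over all H3K27me3 NeuN+ windows, 4.65% overlapped a Suz12 window.

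**Figure D2:**
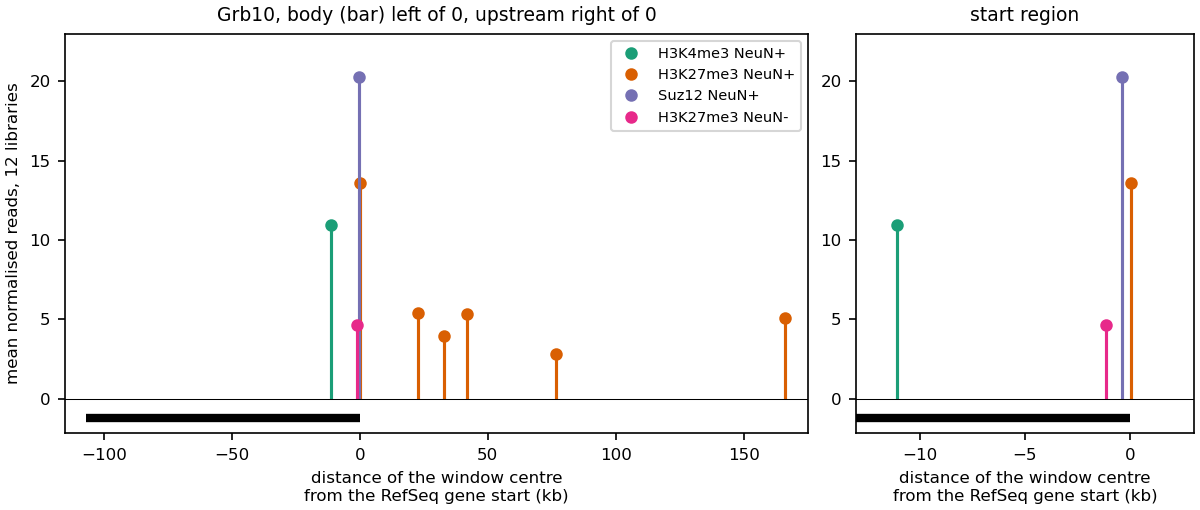
Mean normalised reads over 12 libraries (y axis) of the 9 windows annotated to Grb10, against the distance of the window centre from the RefSeq gene start in kb (x axis); the black bar is the gene body, which lies to the left of 0, and the right panel enlarges the start. H3K4me3 sits 11.1 kb inside the gene, while H3K27me3 of both fractions and Suz12 lie within 1.1 kb of the start and 5 further H3K27me3 windows of NeuN+ nuclei lie from 22.9 to 166 kb upstream.

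The H3K27me3 window at the Grb10 start was among the highest of its table, with 13.6 ± 5.91 normalised reads (SD over 12 libraries), rank 127 of 4132. The Suz12 window had 20.3 ± 11.6, rank 63 of 775. Both were rich in CpG, with 57 and 67 in 401 bp, more than or as many as 99.7% and 98.8% of the windows of their tables. The 5 upstream windows had 2.79 to 5.37 normalised reads on average and 1 to 6 CpG, beside medians of 5.02 reads and 5 CpG over the table, and GENCODE placed no gene at any of them. Their assignment to Grb10 rests on it being the closest gene. The first 2 lines below show the start, where H3K27me3 and Suz12 were high, and the third the upstream window with the only called difference, in the same notation as above.
Grb10 H3K27me3 window at the gene start, chr11:12037402-12037631, minus strand: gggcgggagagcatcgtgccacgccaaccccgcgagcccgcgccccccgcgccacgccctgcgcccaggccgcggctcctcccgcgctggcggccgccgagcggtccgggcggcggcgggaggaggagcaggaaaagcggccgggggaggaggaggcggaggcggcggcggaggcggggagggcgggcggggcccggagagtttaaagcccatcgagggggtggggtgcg
Grb10 Suz12 window at the gene start, chr11:12036896-12037135, minus strand: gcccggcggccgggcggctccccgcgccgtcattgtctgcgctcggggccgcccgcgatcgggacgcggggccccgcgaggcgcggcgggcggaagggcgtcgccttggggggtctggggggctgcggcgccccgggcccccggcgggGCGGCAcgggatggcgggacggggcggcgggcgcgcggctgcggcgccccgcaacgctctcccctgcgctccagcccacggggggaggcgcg
Grb10 window 76.5 kb upstream, chr11:12113829-12114068, minus strand: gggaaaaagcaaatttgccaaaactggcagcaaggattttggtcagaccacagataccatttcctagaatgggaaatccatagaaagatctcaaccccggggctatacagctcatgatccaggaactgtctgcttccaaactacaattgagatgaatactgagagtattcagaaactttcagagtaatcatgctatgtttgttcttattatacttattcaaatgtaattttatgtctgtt

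In single libraries, the H3K27me3 window at the Grb10 start had 16.4, 8.86 and 15.5 normalised reads in WT, 7.10, 5.53 and 16.0 in Mutyh-/-, 7.93, 11.5 and 23.6 in Ogg1-/-, and 12.0, 15.5 and 23.3 in DKO. The genotypes overlapped. The log2 fold changes were -0.55 in Mutyh-/-, -0.01 in Ogg1-/- and 0.29 in DKO with an SE of 0.69 each, and the intervals reached from -1.91 to 1.65. Suz12 at the Grb10 start had 16.1, 39.6 and 26.8 in WT, 2.46, 24.9 and 17.2 in Mutyh-/-, 4.95, 22.4 and 18.8 in Ogg1-/-, and 8.50, 24 and 37.8 in DKO. The ranges of each knockout and WT overlapped, whereas 7.61%, 8.26% and 5.68% of all Suz12 windows were separated from WT in Mutyh-/-, Ogg1-/- and DKO. Replicate 1 was the lowest library in each genotype. Its log2 fold changes were -1.19, -0.94 and -0.36 with an SE of 0.98 each, and none was called, where 5.16%, 3.74% and 2.58% of all Suz12 windows were. The median of all Suz12 windows was itself shifted by -0.63 in Mutyh-/- and -0.57 in Ogg1-/-. In Suz12 NeuN+, replicate numbers paired the Mutyh-/- and WT libraries. With the replicate block the Mutyh-/- difference at Grb10 was called, -1.19 ± 0.53 (SE, adjusted p = 0.369, limma), lower in 3 of 3 pairs. Ogg1-/- was also lower than the same-numbered WT library in 3 of 3 cases. Its blocked difference was -0.94 ± 0.53 (SE, adjusted p = 0.462, limma), which was not called. DKO was lower in replicates 1 and 2 and higher in replicate 3. With that block 13.3% of all Suz12 windows were called in Mutyh-/-.

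The window 76.5 kb upstream of Grb10 was the only call among the 57 tests of 19 windows in 3 knockouts. It had 1.10, 3.32 and 10.3 normalised reads in WT and 4.06, 8.85 and 5.00 in Mutyh-/-, 0 in each Ogg1-/- library, and 0, 0 and 0.802 in DKO. All 3 Ogg1-/- and all 3 DKO libraries were below all WT libraries, and WT itself spread from near 0 to the highest value. In reads, WT held 16, Mutyh-/- 17, Ogg1-/- 0 and DKO 1. With a floor of 3 reads over the group, the bound for Ogg1-/- was 5.27-fold below the WT estimate, leaving out the counting error of WT. WT replicate 3 held 12 of the 16 WT reads, and without it this bound was 2.16-fold. With the counting error of both groups, the exact 95% upper limit for Ogg1-/- was 26.3% of WT, which allows a smaller fall than 5.27-fold. DKO was at 5.83% of WT, with an exact 95% interval from 0.139% to 37.5%. These limits cover counting error only. Consensus peaks had to be found in several replicates, and with no read in Ogg1-/- this window was probably selected through other genotypes. Such a selection would favour a lower value in Ogg1-/-, and neither these limits nor the tests take account of it. An exact two-sided permutation test of Ogg1-/- against WT gave p = 0.1, the smallest that 3 against 3 libraries allow. On the log2(value + 1) scale the difference was -2.23 ± 1.03 in Ogg1-/- (SE, adjusted p = 0.983, limma) and -1.94 ± 1.03 in DKO (adjusted p = 0.998, limma). The unadjusted limma p that the call rests on was 0.0301 in Ogg1-/-, and in DKO it was 0.0583, so only the first was called. Over the 20 alternatives the adjusted p of the Ogg1-/- difference lay between 0.803 and 1. The call was lost without WT replicate 3, where the difference was -1.59, and without any 1 of the 3 Ogg1-/- libraries, where it kept its size but not its p. Of all windows of the table, 3.82% were called in Ogg1-/-, 2.35% with a lower value, thus 1 of 7 windows is not a result about these genes as a group. Groups did not overlap in 9.17% of all windows for Ogg1-/- and 9.08% for DKO, and in 9.15% for Mutyh-/-, where none of the 7 windows had it.

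The other 4 upstream windows were tested in the same fits and none was called, where 3.78% of all windows were called in Mutyh-/- and 3.36% in DKO. The window 22.9 kb upstream had 4.38, 6.64 and 10.3 normalised reads in WT, 0, 4.42 and 0.999 in Mutyh-/-, 0.991, 13.6 and 2.06 in Ogg1-/-, and 2.19, 6.79 and 12.0 in DKO. The highest Mutyh-/- library reached just above the lowest WT library, and the log2 fold change in Mutyh-/- was -1.81 ± 0.99 (SE, adjusted p = 0.998, limma). The windows 32.8, 41.8 and 166 kb upstream had values between 0 and 12.9 in all libraries, and their log2 fold changes lay between -1.035 and -0.47 in the 3 knockouts. Of the 7 H3K27me3 windows, 6, 6 and 5 were below WT in Mutyh-/-, Ogg1-/- and DKO, with medians of -0.66, -0.65 and -0.63 against -0.21, -0.11 and -0.01 over all windows. As 6 of the 7 were annotated to Grb10, most of them by distance only, this is not a result about imprinted genes as a group. The 3 comparisons share the WT libraries, and with the Ogg1-/- value of the called window set to its bound the median was the same, -0.65.

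The Meg3 window of H3K27me3 lay 29.9 kb upstream of the gene in NeuN+ nuclei and at almost the same place, 30.0 kb upstream, in NeuN- nuclei, inside an intron of the noncoding gene Gm34081. At the Grb10 start both fractions also had an H3K27me3 window, but these did not overlap. The Meg3 window was the only place at these genes where windows of the same mark overlapped between the fractions. In NeuN+ nuclei it had 2.19, 3.32 and 0 normalised reads in WT, 0, 0 and 4.00 in Mutyh-/-, 4.95, 5.23 and 0 in Ogg1-/-, and 7.65, 5.82 and 5.62 in DKO. Each WT value was at or below the level of 3 reads in its library. All 3 DKO libraries were above all WT libraries, and groups did not overlap in 9.08% of all windows for DKO. The log2 fold change was 1.61 ± 1.07 (SE, adjusted p = 0.998, limma), which was not called. In NeuN- nuclei the Meg3 window had 6.62, 3.32 and 4.61 in WT, 12.5, 8.45 and 0 in Mutyh-/-, 0, 9.81 and 1.19 in Ogg1-/-, and 6.07, 0 and 1.14 in DKO, and its DKO difference was -1.204 ± 1.16 (SE, adjusted p = 1, limma). The difference between the fractions in the effect of DKO was 2.81 ± 1.53 (SE, adjusted p = 0.962, limma), with an interval from -0.34 to 5.96, so the effects were not shown to differ. The same differences for Mutyh-/- and Ogg1-/- were -0.31 and 1.46, and over the 249 windows with a partner in the other fraction 2.01%, 2.41% and 0.803% were called for Mutyh-/-, Ogg1-/- and DKO.

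**Figure D3:**
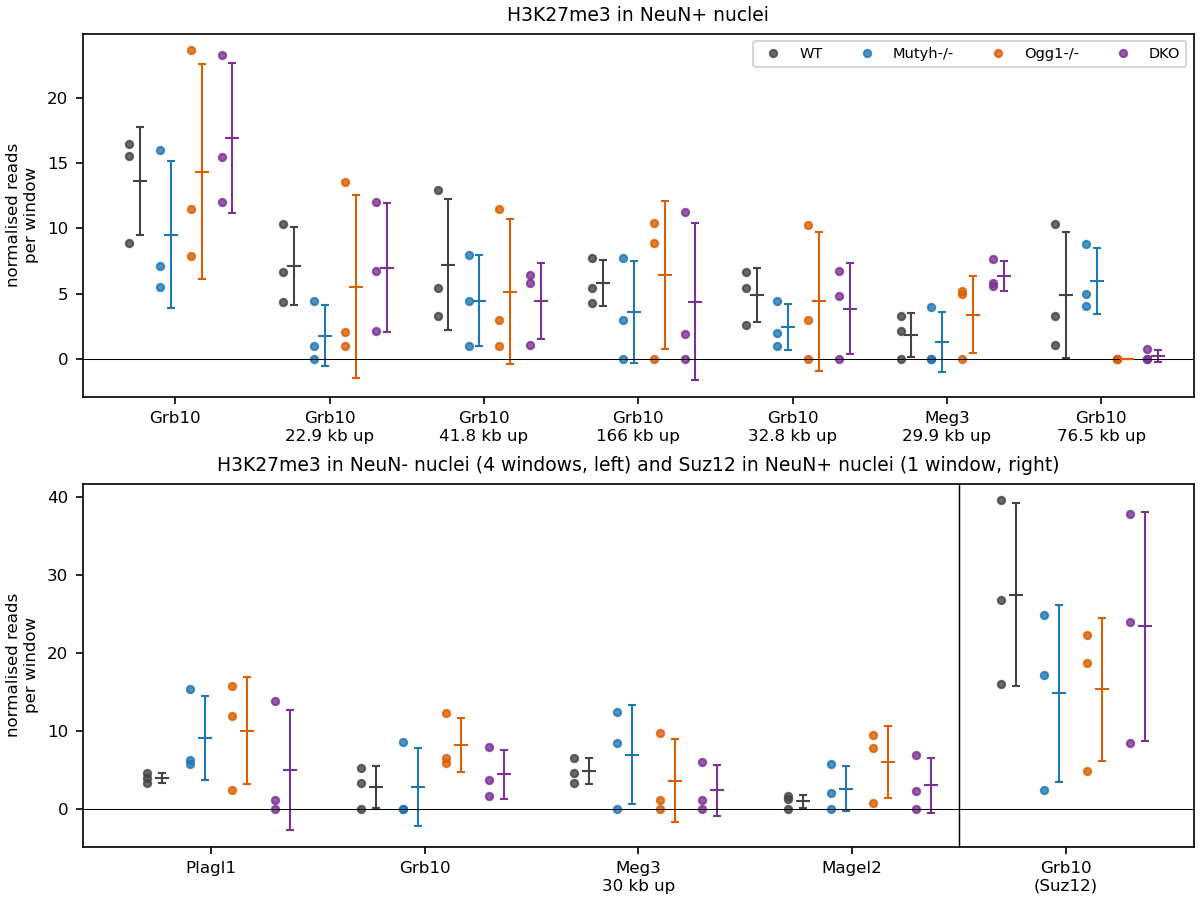
Normalised reads per window (y axis) of H3K27me3 in NeuN+ nuclei (top, 7 windows), H3K27me3 in NeuN- nuclei and Suz12 in NeuN+ nuclei (bottom, 4 windows and 1 window), points being the 3 libraries of each genotype and bars the mean ± SD (n = 3). The Grb10 window 76.5 kb upstream has all Ogg1-/- libraries at 0, whereas the genotypes overlap at the Grb10 start.

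In NeuN- nuclei H3K27me3 gave 4 of 1698 windows and Suz12 none of 312. Of those 312 windows 17.9% were promoter windows, and a single window held 57.1% to 73.8% of the reads of a Suz12 library. Besides Meg3 the H3K27me3 windows were at an upstream promoter of Plagl1, 29.9 kb before the RefSeq start, 1.1 kb inside Grb10 and 1.0 kb inside Magel2, a MAGE family gene of the Prader-Willi domain, where the window covered coding bases. The Grb10 window did not overlap that of NeuN+ nuclei. The Plagl1 window was the highest with 7.05 ± 5.67 normalised reads (SD over 12 libraries) at percentile 78.3, and the others were at 52.3 for Grb10, 50.2 for Meg3 and 26.9 for Magel2.

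Plagl1 had 3.97, 3.32 and 4.61 normalised reads in WT, 15.4, 6.34 and 5.78 in Mutyh-/-, 15.8, 2.45 and 11.9 in Ogg1-/-, and 13.9, 0 and 1.14 in DKO. The 3 WT libraries were close together, and all 3 Mutyh-/- libraries were above them. In each knockout the highest Plagl1 value was that of replicate 1, the library with a median of 8 reads per window. Grb10 had 5.29, 3.32 and 0 in WT, 8.65, 0 and 0 in Mutyh-/-, 12.3, 6.54 and 5.96 in Ogg1-/-, and 1.73, 3.70 and 7.95 in DKO. Here all 3 Ogg1-/- libraries were above WT. Magel2 had 1.32, 1.66 and 0 in WT, 5.76, 2.11 and 0 in Mutyh-/-, 7.89, 0.817 and 9.54 in Ogg1-/-, and 6.94, 0 and 2.27 in DKO. In WT each Magel2 value was below the level of 3 reads in a library, which was 2.45 to 3.97 normalised reads in that group of libraries. Groups did not overlap in 6.6% of all windows of the table for Mutyh-/-, 9.78% for Ogg1-/- and 6.77% for DKO.

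No H3K27me3 NeuN- window of these genes was called, where 2%, 4.18% and 2.3% of all windows were called in Mutyh-/-, Ogg1-/- and DKO. The log2 fold changes with the lowest p were those of Magel2 and Grb10 in Ogg1-/-, 1.595 ± 1.14 and 1.56 ± 1.16 (SE, adjusted p = 0.963 for both, limma). The median over all windows of this table was shifted upwards, to 0.29, 0.58 and 0.41 in Mutyh-/-, Ogg1-/- and DKO, and the 4 windows had medians of 0.21, 1.22 and 0.02.

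**Figure D4:**
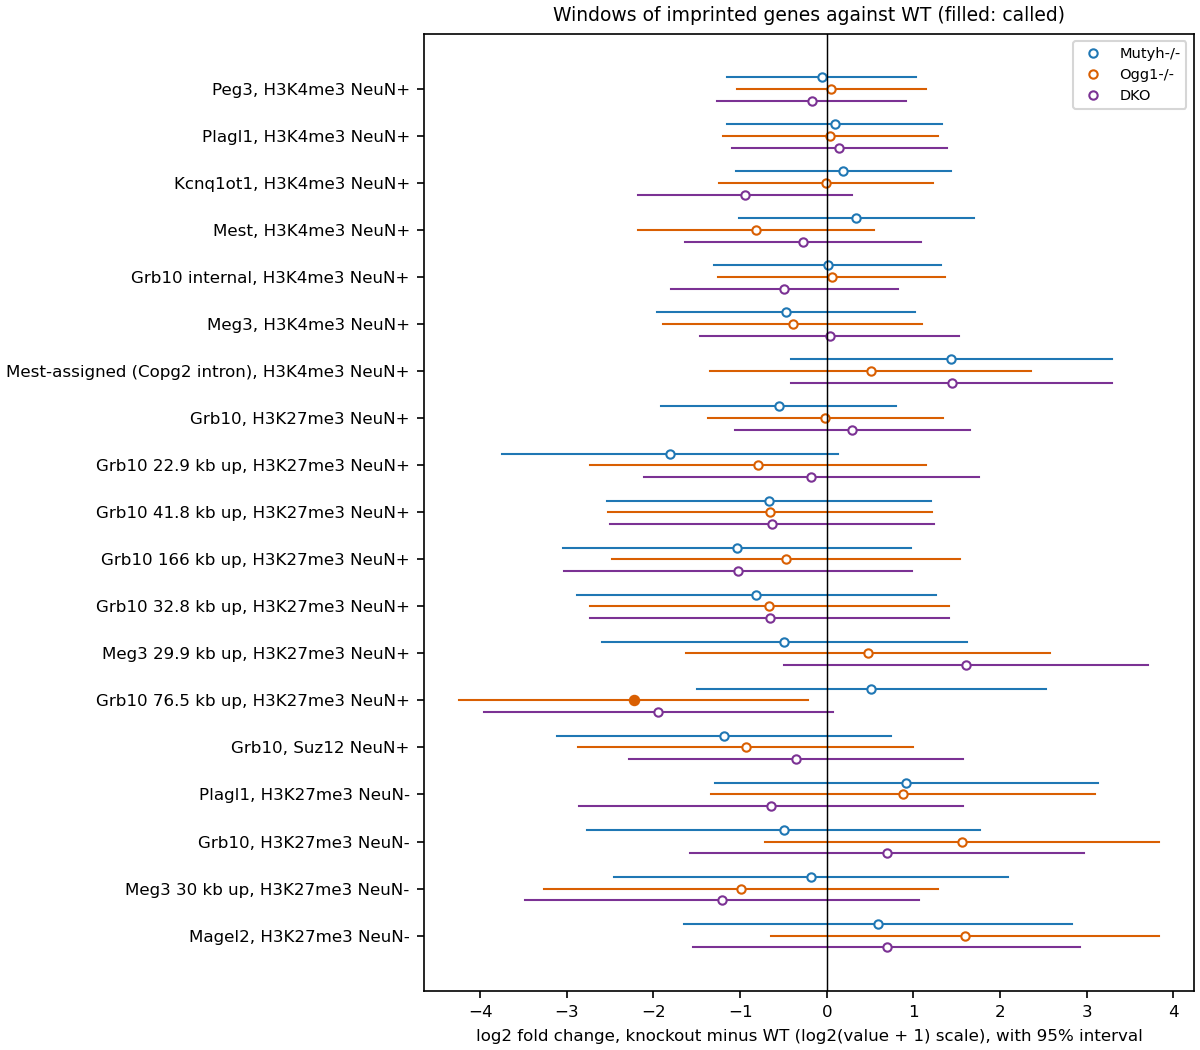
Log2 fold change against WT on the log2(value + 1) scale (x axis) of the 19 windows in Mutyh-/-, Ogg1-/- and DKO, with 95% intervals from limma; the filled point is the only called difference. All 57 intervals reach beyond 1 or below -1, and 1 of them, Grb10 76.5 kb upstream in Ogg1-/-, does not hold 0.

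Across the 57 tests, 1 was called (1.75%), beside 1.92% of all tests in the same 4 tables. Of the 57, 0 had an adjusted p under 0.05 (limma, edgeR or DESeq2), and 1 had an unadjusted p under 0.05 in limma. Over all windows such an adjusted p was reached by 0.121% and 0.0484% of H3K27me3 NeuN+ windows in Mutyh-/- and Ogg1-/- and by 0.129% of Suz12 windows in Mutyh-/-, and by none in the other comparisons of these 4 tables. The SE of a log2 fold change ranged from 0.54 to 1.16, with a median of 0.98, and 40 of the 57 intervals held both a 2-fold rise and a 2-fold fall. Groups did not overlap in 6 of 57 comparisons, beside 6.38% over all windows and comparisons of the 6 tables. Most of these 6 were H3K27me3 comparisons, where the shares over all windows were 6.6% to 9.78%, against 3.68% to 5.77% in H3K4me3 NeuN+. As the 4 genotypes form a crossed design, it was also asked whether the DKO difference departed from the sum of both single knockouts. None of the 19 windows was called for this (limma, and 0 at an unadjusted p under 0.05), where 0.839%, 3.92%, 5.16% and 2.47% of all windows were called in H3K4me3, H3K27me3 and Suz12 of NeuN+ nuclei and H3K27me3 of NeuN- nuclei.

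Level and CpG content were set side by side as a description. The H3K27me3 and Suz12 windows of NeuN+ nuclei at the Grb10 start were high in both, while the H3K27me3 window of NeuN- nuclei 1.1 kb inside Grb10 was at percentile 52.3 for level and 54.2 for CpG. The Grb10 internal window, Mest and Plagl1 combined a CpG count above the median of their table with an H3K4me3 level at or under percentile 18.2.

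**Figure D5:**
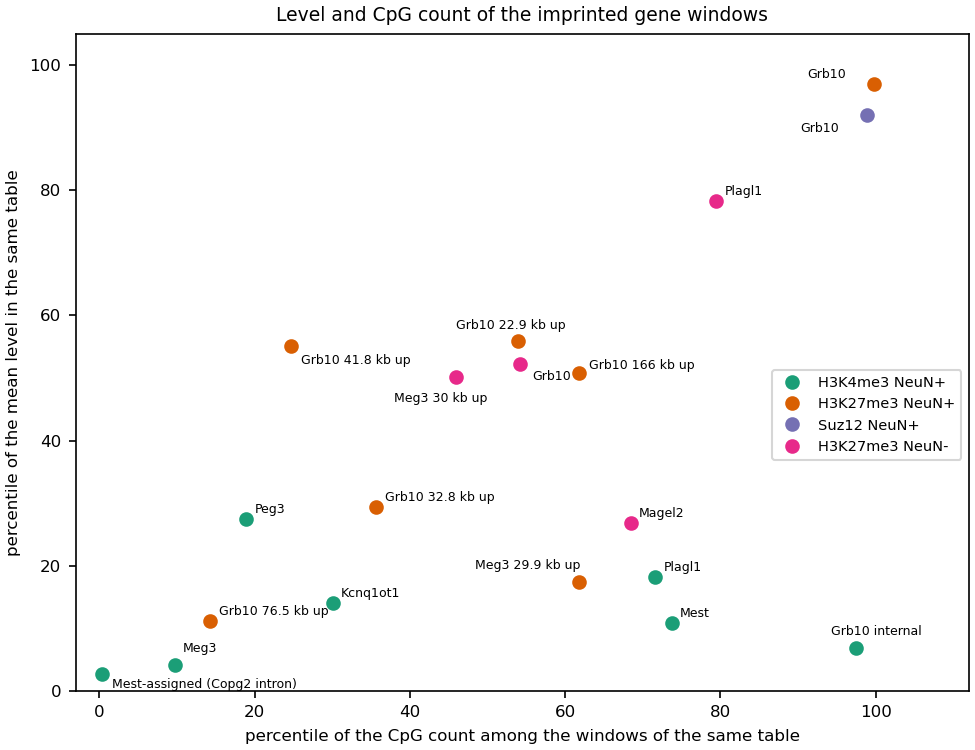
Percentile of the mean level in its own table (y axis) against the percentile of the CpG count among windows of that table (x axis) for the 19 windows, coloured by antibody and fraction. The Grb10 internal H3K4me3 window is at 97.5 for CpG and 6.86 for level, and the Grb10 start is at 99.7 and 97.0 for H3K27me3.

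The windows most alike to each H3K4me3 window over the 12 libraries, by Pearson's r of log2(value + 1) among 11511 genes, were Sstr2 (0.96) and Cndp2 (0.94) for Peg3, Shisal2b (0.88) and Dohh (0.80) for Mest, and Bmal2 (0.94) and Armc7 (0.93) for Plagl1. For Kcnq1ot1 they were 2700054A10Rik (0.82) and Elob (0.72), for Grb10 Gmnc (0.81) and Plekhg1 (0.81), and for Meg3 Parp12 (0.95) and Ccdc61 (0.94). None of the 2 nearest genes was itself among the 10 genes. Among the 10 genes the highest correlation was that of Plagl1 and Meg3, 0.67. With 12 libraries of unequal depth these values are a description.

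A wider list of 61 other imprinted genes had 88 windows in the 6 tables, 35 of them H3K4me3 NeuN+ windows of 30 genes, at a median percentile of 42.6. Of its 264 tests 4 were called (1.52%), 1 higher and 3 lower, beside 2.13% of all tests in the 6 tables, and the lowest adjusted p was 0.916 (limma). Trappc9, a gene for a vesicle tethering subunit, was lower in DKO for H3K4me3 NeuN+, with 33.4, 29.3 and 21.5 normalised reads in WT and 0, 16.1 and 27.3 in DKO (log2 fold change -1.87 ± 0.69, SE, adjusted p = 1.000, limma). Sfmbt2, a Polycomb-related gene, was higher in Ogg1-/- for the same mark, 3.86, 0 and 0 against 21.4, 4.10 and 6.92 (2.51 ± 1.01, SE, adjusted p = 1.000, limma). Gnas, which encodes the stimulatory G protein subunit, was lower in Ogg1-/- for H3K27me3 NeuN+, 8.76, 11.1 and 1.72 against 3.96, 0 and 0 (-2.005 ± 0.97, SE, adjusted p = 0.983, limma). Inpp5f, a phosphatase gene, was lower in Ogg1-/- for H3K4me3 NeuN-, 23.5, 15.8 and 14.2 against 15.8, 3.19 and 1.42 (-1.73 ± 0.77, SE, adjusted p = 0.999, limma). Among the H3K4me3 NeuN- windows, 2.94%, 3.36% and 2.29% of all windows were called in Mutyh-/-, Ogg1-/- and DKO. Groups overlapped for Trappc9, Gnas and Inpp5f. The 0 of Trappc9 was in DKO replicate 1, the shallowest H3K4me3 NeuN+ library. The WT values of Sfmbt2 were at or below the level of 3 reads in their libraries.

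The regulators of imprints had H3K4me3 NeuN+ promoter windows in 7 of 7 cases. Zfp57, the reader of TGCCGC, had a mean of 19.3 normalised reads over the 12 libraries, Trim28, its partner, 30.1, and Zfp445, a related zinc finger protein, 18.8. Dnmt1, which copies DNA methylation, had 25.4, Uhrf1, its recruiter, 14.4, Ctcf 14.9 and Yy1 34.1 at the higher of its 2 windows. In NeuN- nuclei, Trim28 and Yy1 had H3K4me3 windows, and Uhrf1 had an H3K27me3 window in NeuN+ nuclei with 5.27.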

How the data were processed

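Hippocampal ChIP-seq libraries for H3K4me3, H3K27me3 and Suz12 in NeuN+ and NeuN- nuclei were analysed, 3 replicates of 4 genotypes in each of 6 tables. The 24 input samples were not used here. The authors aligned reads to GRCm38 with Bowtie2 2.3.5.1, called peaks with epic2, kept peaks found in several replicates, counted reads with DiffBind 3.10.1 and annotated windows with ChIPseeker 1.36. The unit of the deposited tables is signal: the authors divided the reads of a window by a factor of its library. In all, 100% of the values were whole multiples of a step within a tolerance of 1e-06, so whole reads were recovered. The antibody and fraction of a column come from its table, the genotype and replicate from its name and the label. Handling of duplicates and input is not given in the sources used here.

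Values were tested with limma 3.58.1 on log2(value + 1), 12 libraries in a fit, genotype as the only term, and Benjamini-Hochberg adjustment over all windows of a table. A window was called when p was under 0.05 with a log2 fold change beyond 0.5 in either direction. Single windows were also compared by an exact two-sided permutation test, added after seeing the data. The pseudocount understates changes of low windows. The prior degrees of freedom were infinite for H3K27me3 and Suz12, so the spread of a single window did not enter its p there. Fits were tested on simulated data. Alternatives were other pseudocounts (0.5 and 5), a filter on the lowest 25% of windows, TMM factors, edgeR and DESeq2 on recovered reads, robust variances, a replicate block, a threshold of 1, leaving out each library, and, chosen after seeing the data, windows within 2 kb of a gene.

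Replicate numbers were checked for pairing: the deviations of same-numbered WT and Mutyh-/- libraries correlated at 0.388, 0.186 and 0.119 in Suz12 NeuN+, all over 0.1, which was not so for the other contrasts of the 18. For Ogg1-/- in Suz12 NeuN+ they were similar, 0.285, 0.226 and 0.0714, and only the last was under this cut. Replicates were separate samples by the labels. The p-values measure the spread between pooled preparations, which for H3K27me3 and Suz12 was taken from windows of similar level and not from the window itself.

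Genes were named by a rule: every window of the 10 genes, the 2 windows most alike to each H3K4me3 window, and up to 2 called windows per table of a wider list. The members and lists were chosen with earlier results of these data known. Sequences came from GRCm38, gene features from GENCODE vM21 and promoters from RefSeq, of which the 16 promoter windows matched the genome.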

Additional observations from a re-analysis of the deposited data

How the results depend on the processing

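The call at the Grb10 window 76.5 kb upstream in Ogg1-/- held under 16 of 20 refitted alternatives, among which the filter on low values is not counted. The 16 include each fit without a Mutyh-/- or DKO library, which left both compared groups whole and the difference at -2.23. Among the fits without a WT or Ogg1-/- library, it held only without WT replicate 1 or WT replicate 2. The count of called H3K27me3 NeuN+ windows was 1, and it became 0 with the filter on low values, which leaves this window out, and 0 with only windows within 2 kb of a gene, 2 with TMM factors in limma, 2 with TMM factors in edgeR and 2 with DESeq2, where the same window was also called in DKO. It was 3 with the replicate block and ranged from 0 to 3 when a library was left out. With the replicate block, the Suz12 NeuN+ count was 1 in place of 0 (Grb10 in Mutyh-/-), and the count of non-additive DKO effects was 1 in place of 0 (Grb10 Suz12, adjusted p = 0.263, limma). The block changed no other count of the 10 genes, and over all windows it raised the calls from 40, 29 and 20 to 103, 98 and 38 in Suz12 NeuN+ and from 156, 158 and 139 to 242, 218 and 196 in H3K27me3 NeuN+ (Mutyh-/-, Ogg1-/- and DKO). No contrast but Mutyh-/- in Suz12 NeuN+ passed the cut of 0.1 for pairing, so the other blocked values rest on a shared number only. No label states a pairing for that contrast either. With a library left out, counts ranged from 0 to 2 in H3K4me3 NeuN+, from 0 to 2 for non-additive effects and from 0 to 1 for the difference between fractions (Meg3 in DKO, without DKO NeuN- replicate 1). The other counts stayed at 0 in every fit run, including that of adjusted p under 0.05. Over all H3K4me3 NeuN+ windows, calls in Mutyh-/-, Ogg1-/- and DKO rose from 115, 122 and 185 with the authors' factors to 473, 481 and 699 with TMM factors in limma, and from 119, 150 and 104 to 506, 501 and 490 in edgeR, and DESeq2 gave 378, 378 and 355. In H3K27me3 NeuN+, edgeR with the authors' factors called 102 windows in Ogg1-/- where limma called 158. No called value changed sign. The intervals of log2 fold changes are from limma and rest on the spread between libraries. For H3K27me3 and Suz12 this spread is that of windows of similar level, not of the window itself. The exact limits at the Grb10 window cover counting error only, and the floor there leaves out the counting error of WT. Neither takes account of a selection of this window through other genotypes. With 0 to 48 reads in a library at a window, differences of about 2-fold were not detectable at these genes.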
